A study of Homo sapiens with 6 samples.

Results

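Spliceosomal snRNA genes and their near copies were taken by name from a table of 60420 genes. A gene was a member when its symbol began with RNU or RNVU, its GENCODE type was snRNA and its symbol did not end in P, the ending used for pseudogenes. The rule found 37 genes: 21 of the U1 class, 2 of U4, 5 of U5, 6 of U6, and 1 each of U7, U4atac and U6atac. No gene of the U2, U11 or U12 classes met the rule, so 7 of the 10 classes looked for had members. Of the 37 members, 28 had a mean of at least 5 TPM over the 6 libraries, and ratios are given for these. TPM is the length-scaled share of a library's transcripts that a gene takes.

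The libraries came from HEK293T cells, a human embryonic kidney line carrying the SV40 large T antigen, treated with DMSO (the vehicle), a PRMT1 inhibitor or a PRMT4 inhibitor. PRMT1 and PRMT4 (also called CARM1) are enzymes that methylate arginines, many of them on RNA-binding proteins. Each of the 3 treatments had 1 input library and 1 library of ribosome footprints, the RNA left under monosomes after RNase I digestion. The labels name no compound, dose, time or clone, and they describe the inputs too as ribosome-protected, whereas the table's column names call them mRNA. With 1 library per group, each difference below compares 2 libraries and has no replicate check.

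Small nuclear RNAs are short non-coding RNAs that assemble with proteins into snRNPs, the working parts of the spliceosome. U1 pairs with the 5′ splice site, U2 pairs with the branch point, and U4, U5 and U6 join together as the tri-snRNP, in which U4 holds U6 inactive until the spliceosome is activated. U4atac and U6atac take the places of U4 and U6 in the minor spliceosome, and U7 serves histone message 3′ end cleavage and not splicing. Most of these RNAs carry a ring of Sm proteins, several of which have methylated arginines, while U6 and U6atac carry LSm proteins. Because none of them is translated, their reads in a footprint library do not measure translation.

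The sequences show which members can be told apart by short reads. RNVU1-18, RNU1-1, RNU1-2, RNU1-3 and RNU1-4 had the same 164 bases in GENCODE release 29, and RNVU1-7 differed from them by T150C, with the base of RNU1-1 first and positions counted from 1 at the 5′ end. Capitals mark the 5′ splice-site pairing stretch, ACTTACCTG, at positions 3 to 11 and the Sm site letters, ATTTNTG, at positions 126 to 132.

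RNVU1-18 and RNU1-1 to RNU1-4: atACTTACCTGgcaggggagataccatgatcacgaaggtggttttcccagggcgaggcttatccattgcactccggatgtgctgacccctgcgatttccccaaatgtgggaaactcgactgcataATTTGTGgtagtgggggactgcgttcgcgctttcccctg
RNVU1-7: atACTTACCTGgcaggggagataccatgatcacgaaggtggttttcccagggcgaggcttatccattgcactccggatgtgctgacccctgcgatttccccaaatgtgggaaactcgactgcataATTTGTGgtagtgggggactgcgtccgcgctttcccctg

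RNU4-1 and RNU4-2 had 141 bases each and differed at 4 positions, T37C, A88G, A99C and T113C, with the base of RNU4-2 first. Capitals mark a stretch from the start of the 5′ stem-loop and the Sm letters.

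RNU4-1: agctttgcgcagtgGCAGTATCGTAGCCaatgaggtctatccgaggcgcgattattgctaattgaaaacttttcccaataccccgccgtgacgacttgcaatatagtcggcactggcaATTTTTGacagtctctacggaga
RNU4-2: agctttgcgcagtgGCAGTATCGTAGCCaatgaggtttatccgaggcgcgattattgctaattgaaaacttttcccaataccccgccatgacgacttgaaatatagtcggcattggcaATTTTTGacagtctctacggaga

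The 5 U5 variants can be told apart more readily: against RNU5A-1, the others were 81.9% to 94.0% identical.

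RNU6-1, RNU6-2 and RNU6-9 were identical to each other, while RNU6-7 and RNU6-8 differed from them at 1 position. In U6atac, capitals mark AAGGAGA, the stretch that pairs at the 5′ splice site.

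RNU6ATAC: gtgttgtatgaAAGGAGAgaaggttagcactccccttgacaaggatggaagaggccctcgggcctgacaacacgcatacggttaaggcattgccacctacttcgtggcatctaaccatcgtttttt

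U4atac and U7 are shown because each has 1 gene and the values belong to it alone. Capitals mark Sm letters in U4atac, and in U7, whose ring differs in part from the Sm ring of the other RNAs, no letters were searched.

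RNU4ATAC: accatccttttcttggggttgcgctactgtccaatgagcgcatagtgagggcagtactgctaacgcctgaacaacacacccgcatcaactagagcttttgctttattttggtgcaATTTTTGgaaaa
RNU7-1: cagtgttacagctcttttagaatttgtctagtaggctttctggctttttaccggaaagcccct

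The U1 pairing stretch was present in 11 of the 21 U1 members (52.4%) and in 29 of 107 U1 copies whose symbols end in P (27.1%), searched on the RNA strand. For scale, 148 of 199168 GENCODE transcripts of 164 bases or more (0.0743%) had the stretch in their first 164 bases. Members with it ranged from a mean of 0.125 to 11494 TPM, with a median of 1649 TPM, and 9 of the 11 had at least 5 TPM. The 10 members without it ranged from 0 to 54.4 TPM, with a median of 3.71 TPM, and 5 had at least 5 TPM. The most abundant U1 member without it was RNVU1-15. The backgrounds among 1900 snRNA-type transcripts were 2.63% for ACTTACCTG, 0.842% for the U4 stem-loop stretch, 1.74% for AAGGAGA and 27.2% for ATTTNTG. A letter match describes a sequence and not a working site.

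The library labels need one caution before the results. Across 9040 genes, the difference between the PRMT4 and PRMT1 inhibitor labels in input had a Pearson r of -0.31 with the same difference in footprints, a description across genes that share libraries. HMOX1, a stress-response gene, stood at 21.6 TPM in the PRMT1 inhibitor input and 156.5 TPM in the PRMT4 inhibitor input, but at 641.7 and 93.9 TPM in the respective footprints. Libraries are therefore named by their labels only. Protein-coding genes made up 45.7%, 38.7% and 33.4% of TPM in the DMSO, PRMT1 inhibitor and PRMT4 inhibitor inputs and 74.3%, 62.3% and 70.6% in the footprints. Their part in the snRNA values was not tested. Of 4 genes looked up as markers of this line, VIM lay between 103.97 and 208.1 TPM and KRT18 between 31.5 and 58.2 TPM, while NEFM and PAX2 were nearly absent, at 1.97 and 1.15 TPM or less.

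Together the 37 members held 3.55% of the DMSO input, 3.98% of the PRMT1 inhibitor input and 3.89% of the PRMT4 inhibitor input. In footprints they held 2.94%, 4.17% and 3.14% in the same order of labels. For these members the PRMT1 inhibitor footprints were thus the highest of the footprint libraries, and the inputs lay closer together. With symbols ending in P included, U2 copies among them, the inputs held 8.17%, 11.3% and 9.82%. The footprints then held 5.82%, 7.50% and 6.28%, and the inputs no longer lay closer together. U1 supplied 63.0% to 78.4% of the members' TPM in each library.

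The class order in the DMSO input, by summed TPM, was U1 (26078), U5 (4117), U4 (2117), U4atac (1973), U6atac (746.05), U6 (412.1) and U7 (66.4). That order was kept in the PRMT1 inhibitor input, while in the PRMT4 inhibitor input U4 (3120) stood marginally above U5 (3010). In DMSO footprints U7 (162.45) lay above U6 (78.2) and U6atac (33.3), which came last in all 3 footprint libraries. The place of U6 rests on leaving out identical copies whose symbols end in P. All 7 genes of the RNU6-1 sequence summed to 2273 TPM in DMSO input, above U4, and to 182.5 TPM in DMSO footprints, above U7. Neighbours in this order have no replicate spread to be judged against. In a bulk sample a lower TPM can mean less of the RNA per cell or more of the other RNAs, which cannot be told apart here.

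**Figure D1:**
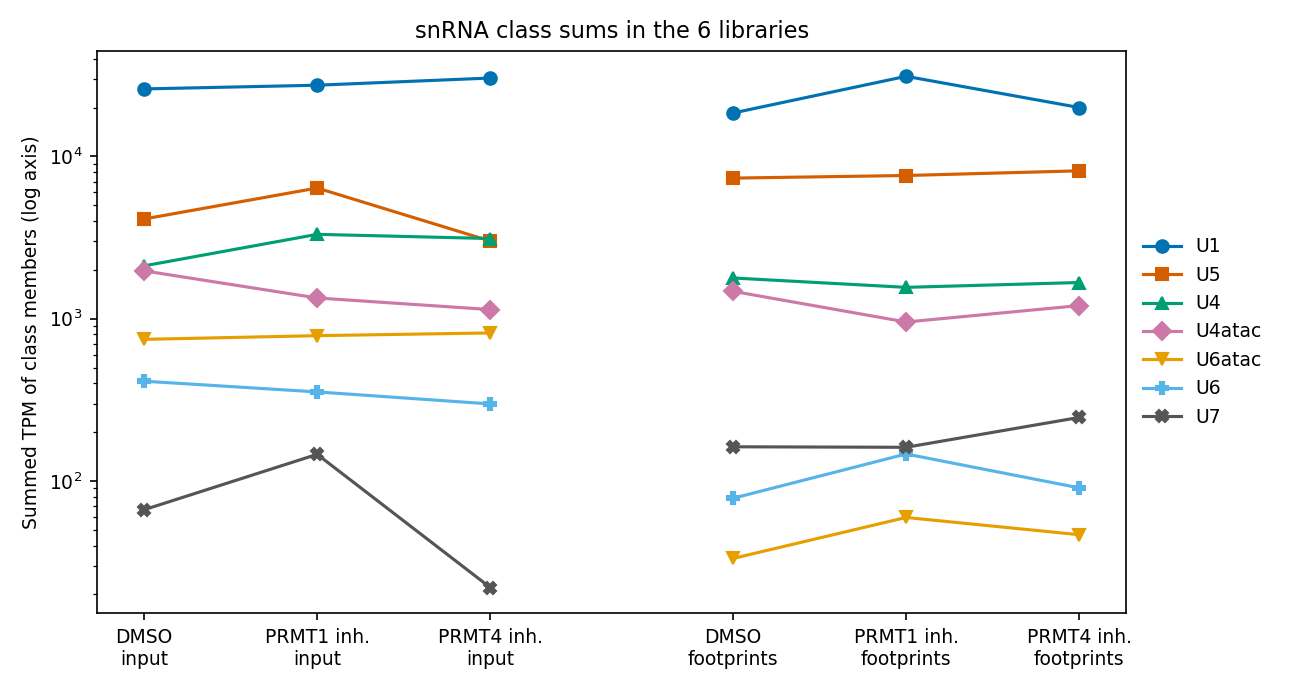
Summed TPM of each snRNA class (log axis) in the 6 libraries, 1 point per library, with inputs on the left and footprints on the right; lines only join the libraries of a class. U1 is the highest class in every library, U7 spans 22.02 to 145.95 TPM among inputs, and U6atac is at 746.05 TPM or more in inputs and at 59.6 TPM or less in footprints.

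Ratios below are log2((TPM + 1)/(TPM + 1)) between 2 libraries, minus the median of that ratio over the 9040 genes with a mean of at least 5 TPM. A value of 1 thus stands for a ratio 2-fold above that of the median gene. Above or below the median gene refers to this ratio and not to abundance. Before this centring the median was -0.16 and -0.37 in input for the PRMT1 and PRMT4 inhibitor labels, and -0.15 and -0.01 in footprints. Both labels are compared with the same DMSO libraries, so their ratios are not independent.

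Among its own comparisons with DMSO, U1 as a class differed most in the PRMT1 inhibitor footprints. Its summed level was 18523 TPM in DMSO, 31192 TPM in the PRMT1 inhibitor footprints and 20022 TPM in the PRMT4 inhibitor footprints. Relative to the median gene the ratios were 0.90 and 0.12. In input the sums were 26078, 27491 and 30447 TPM, with ratios of 0.24 and 0.59. Without the RNVU genes, among them the most abundant copy, the input ratios were -0.37 and -0.44. The sum over all 37 members had ratios of 0.32 and 0.50 in input and 0.65 and 0.10 in footprints, and without RNVU1-18 the PRMT4 inhibitor input ratio was -0.10. With symbols ending in P included, the ratios of the sum were 0.63 and 0.63 in input and 0.51 and 0.12 in footprints.

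Within U1, the inputs differed in which copy carried the reads. RNVU1-18 (ENSG00000206737.1), the most abundant member, had 11095 TPM in DMSO input, 16388 TPM in the PRMT1 inhibitor input and 21157 TPM in the PRMT4 inhibitor input. It made up 42.5%, 59.6% and 69.5% of U1 in those libraries, and 35.3%, 23.97% and 31.5% in the footprints. RNU1-1 and RNU1-3 shared 1 value in each library: 3286, 2304 and 1682 TPM in input. RNU1-2 and RNU1-4 likewise shared 3360, 2304 and 2127 TPM. The RNVU1-18 share was thus higher, and that of the other 4 genes lower, in both inhibitor inputs than in DMSO.

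Since these 5 genes have the same sequence, reads within it cannot separate them, and how the counting divided such reads is not given in the labels or notes. Other genes of this sequence, RNU1-27P and RNU1-28P, fall outside the rule, so a sum over the 5 members is still subject to the division. It was 24389 TPM in DMSO input, 25605 TPM in the PRMT1 inhibitor input and 28775 TPM in the PRMT4 inhibitor input, with ratios of 0.23 and 0.60. In footprints the sum was 16921, 27821 and 18195 TPM, with ratios of 0.86 and 0.11. Over all 7 genes of the sequence the input sums were 32132, 31308 and 36114 TPM, with ratios of 0.12 and 0.53, and in TPM the PRMT1 inhibitor input then lay below DMSO. The 7-gene footprint sums were 22111, 37993 and 24142 TPM, with ratios of 0.93 and 0.13. The footprint difference of the PRMT1 inhibitor label was thus present in both sums. RNVU1-18 (1.30 for the PRMT4 inhibitor label) and RNU1-1 (-0.60) had opposite input ratios, which cannot be assigned to single genes.

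In footprints RNU1-1 to RNU1-4 all had 1 value, 2595 TPM in DMSO, 5086 TPM in the PRMT1 inhibitor label and 2973 TPM in the PRMT4 inhibitor label. RNVU1-18 stood at 6541, 7478 and 6302 TPM in the same libraries. RNVU1-7 (ENSG00000206585.1), the copy with T150C, was at 1011, 2995 and 1301 TPM in footprints. Its ratio of 1.71 for the PRMT1 inhibitor label was the highest of the 28 members there. Only reads that cover position 150 can separate RNVU1-7 from the identical copies, so its level is uncertain too. Its input values, 1445, 1643 and 1496 TPM, were close together. RNVU1-7 and the 4 RNU1 genes were thus higher in 1 footprint library than in the other 2, while RNVU1-18 lay within 6302 to 7478 TPM.

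**Figure D2:**
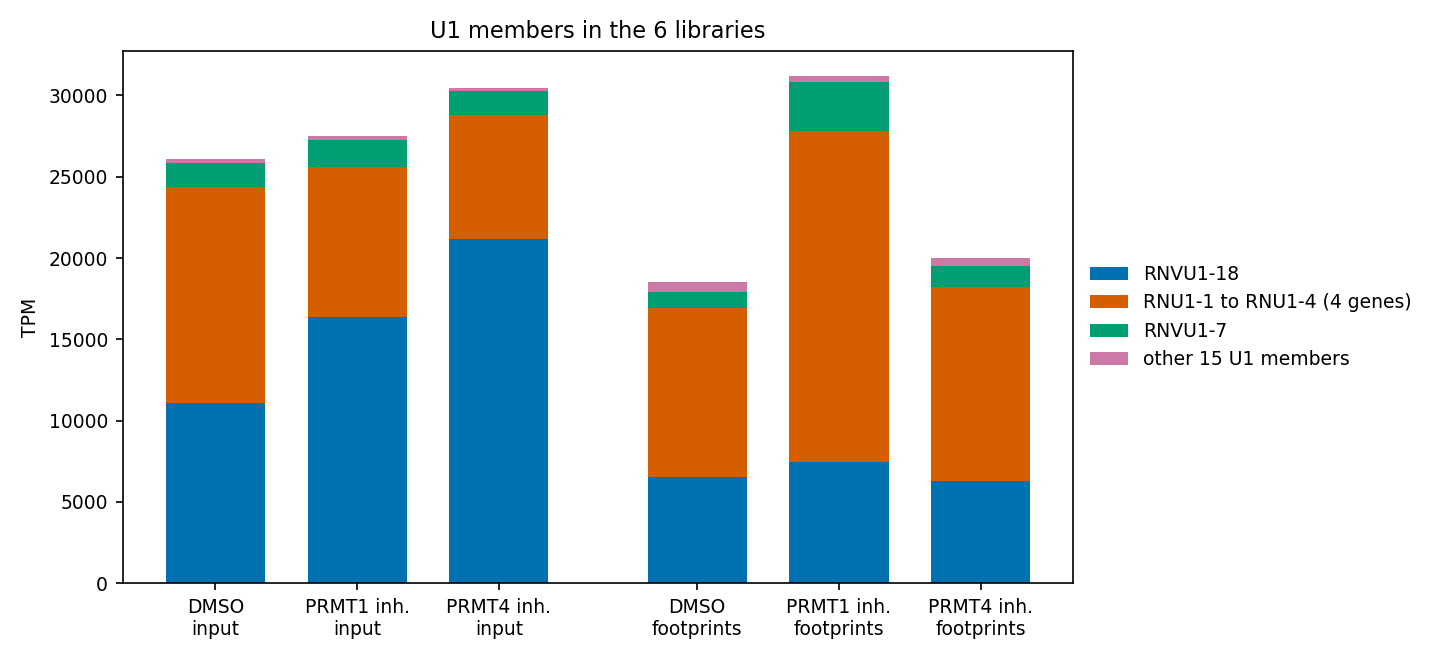
TPM of the U1 members stacked by gene in each of the 6 libraries (linear axis from 0), with RNVU1-18, RNU1-1 to RNU1-4, RNVU1-7 and the other 15 U1 members as segments. The RNVU1-18 segment goes from 11095 TPM in the DMSO input to 21157 TPM in the PRMT4 inhibitor input, and in footprints the total is highest under the PRMT1 inhibitor label at 31192 TPM.

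The remaining U1 variants were rare. RNVU1-6, 90.9% identical to RNU1-1, was the one variant of these with far more TPM in footprints than in input: 452.6, 256.2 and 337.4 TPM against 54.6, 58.4 and 31.2 TPM. RNVU1-15 had input values of 71.5, 69.4 and 53.3 TPM and footprint values of 31.9, 25.6 and 74.3 TPM. The mean levels of RNVU1-14, RNVU1-21, RNVU1-34, RNVU1-17, RNVU1-3 and RNVU1-22 were 36.1, 26.7, 14.7, 14.1, 6.79 and 5.23 TPM. A further 7 U1 members had a mean of 2.18 TPM or less, and 2 of them, RNVU1-23 and RNVU1-30, were at 0 in all 6 libraries.

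U4, which chaperones U6 into the tri-snRNP, was higher in both inhibitor inputs than in DMSO and nearly level in footprints. RNU4-1 had 1270 TPM in DMSO input, 1925 TPM in the PRMT1 inhibitor input and 1905 TPM in the PRMT4 inhibitor input. RNU4-2 was at 847, 1387 and 1216 TPM. In footprints RNU4-1 was at 985, 841 and 906 TPM and RNU4-2 at 798, 719.6 and 765.5 TPM. The input ratios were 0.76 and 0.95 for RNU4-1 and 0.87 and 0.89 for RNU4-2, and the footprint ratios lay between -0.11 and 0.00. RNU4-1 was thus above RNU4-2 in every library, and both copies had the same order of inputs and of footprints.

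U5, which aligns the exons, was higher in the PRMT1 inhibitor input than in the other 2 inputs. RNU5A-1 stood at 1723, 2595 and 1219 TPM in the DMSO, PRMT1 inhibitor and PRMT4 inhibitor inputs. RNU5B-1 was at 982, 1992 and 778 TPM, and RNU5E-1 at 1225, 1370 and 927 TPM. Each of these was lowest in the PRMT4 inhibitor input in TPM, although relative to the median gene their ratios there were only -0.13, 0.03 and -0.04.

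The rarer RNU5D-1 and RNU5F-1 had the wider span. RNU5D-1 was at 103.7, 183.3 and 37.0 TPM in input, with ratios of 0.97 and -1.10. RNU5F-1 was at 83.9, 249.8 and 48.2 TPM, with ratios of 1.72 and -0.42. All 5 U5 members were above the median gene in the PRMT1 inhibitor input, and 4 of 5 were below it in the PRMT4 inhibitor input. Their sum was 4117, 6391 and 3010 TPM, with ratios of 0.79 and -0.09.

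In footprints the U5 sum was nearly level at 7355, 7633 and 8158 TPM. RNU5E-1 led there with 3209, 3795 and 3903 TPM, ahead of RNU5A-1 with 1666, 1557 and 1752 TPM and RNU5B-1 with 1687, 1500.3 and 1716 TPM. RNU5D-1 was at 474.7, 331.95 and 480.04 TPM and RNU5F-1 at 319, 449.5 and 306 TPM. The leading U5 variant was thus RNU5A-1 in the DMSO and both inhibitor inputs and RNU5E-1 in all 3 footprint libraries.

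U7 (RNU7-1, ENSG00000238923.1) had the same input order as U5 with a wider span. It had 66.4 TPM in DMSO input, 145.95 TPM in the PRMT1 inhibitor input and 22.02 TPM in the PRMT4 inhibitor input, with ratios of 1.28 and -1.19. Its footprint values were 162.45, 161.3 and 246.5 TPM, with ratios of 0.14 and 0.60. At 63 bases it is the shortest member, and how fragment length entered TPM for RNAs this short is likewise not stated there.

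**Figure D3:**
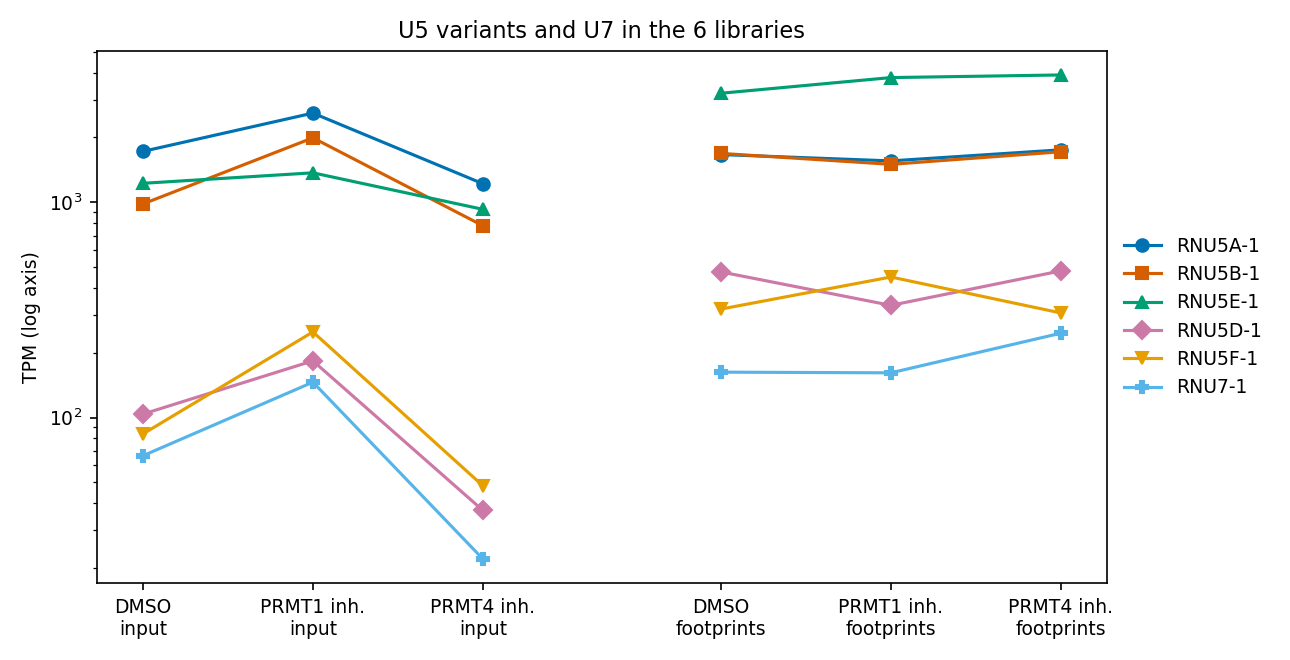
TPM (log axis) of the 5 U5 variants and U7 in the 6 libraries, 1 point per library, with inputs on the left and footprints on the right. All 6 genes are highest among inputs in the PRMT1 inhibitor label and lowest in the PRMT4 inhibitor label, with U7 going from 145.95 to 22.02 TPM, and RNU5E-1 is the highest in each footprint library.

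U6, the catalytic RNA of the spliceosome, showed values that moved between identical copies. RNU6-1 had 286.9 TPM in DMSO input and 145.01 TPM in the PRMT1 inhibitor input and was listed at 0 in the PRMT4 inhibitor input. RNU6-2 and RNU6-9 shared 21.6, 0.96 and 120.8 TPM in the same inputs. Summed over these 3 identical genes, the level was 330.2, 146.9 and 241.5 TPM, with ratios of -1.004 and -0.084. Over all 7 genes of the same sequence, with RNU6-3P, RNU6-4P, RNU6-5P and RNU6-6P, it was 2273, 1632 and 1457 TPM, with ratios of -0.32 and -0.28. The 2-fold difference under the PRMT1 inhibitor label was thus absent once every identical copy was counted. The single-gene values thus describe how reads were assigned and are uncertain as levels of 1 locus.

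In footprints RNU6-1, RNU6-2 and RNU6-9 shared 1 value in each library, 26.1 TPM in DMSO, 48.9 TPM in the PRMT1 inhibitor label and 30.2 TPM in the PRMT4 inhibitor label. RNU6-8 was at 81.9, 206.9 and 56.8 TPM in input and was listed at 0 in all 3 footprint libraries. It differs from them only at its last base, so only reads that cover that base can separate it. Its values too are uncertain as levels of 1 locus. RNU6-7 and RNU6V did not exceed 0.04 TPM. As a class, U6 was at 412.1, 353.9 and 298.3 TPM in input and 78.2, 146.7 and 90.6 TPM in footprints, with footprint ratios of 1.04 and 0.22.

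The minor spliceosome's pair went in different directions. U4atac (RNU4ATAC) was highest in DMSO on both sides, at 1973, 1343 and 1139 TPM in input and 1476, 954 and 1205 TPM in footprints. Its ratios were -0.40 and -0.43 in input and -0.48 and -0.29 in footprints. U6atac (RNU6ATAC) had input levels of 746.05, 786.3 and 817.4 TPM but footprint levels of 33.3, 59.6 and 46.6 TPM, with ratios of 0.23 and 0.50 in input and 0.97 and 0.48 in footprints. All 4 ratios of U4atac were below the median gene and all 4 of U6atac above it.

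Counts over the 28 members put these values beside the other genes. In the PRMT1 inhibitor input 4 members were at least 2-fold higher (RNU5B-1, RNU5F-1, RNU6-8 and RNU7-1), where 0.619% of the 9040 genes were, and 2 were at least 2-fold lower (RNU6-2 and RNU6-9), where 0.199% were. Altogether 19 of 28 members were above the median gene, with a median of 0.29. In the PRMT4 inhibitor input 4 were at least 2-fold higher (RNVU1-18, RNVU1-17, RNU6-2 and RNU6-9; background 1.98%) and 3 at least 2-fold lower (RNU5D-1, RNU6-1 and RNU7-1; background 0.465%). There 19 of 28 members were below the median gene, with a median of -0.19. The calls on U6 copies and on RNVU1-18 are uncertain, since these genes share their sequence with others.

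In footprints, 8 members were at least 2-fold higher in the PRMT1 inhibitor label (RNU1-1 to RNU1-4, RNVU1-7, RNU6-1, RNU6-2 and RNU6-9; background 3.25%) and 0 were at least 2-fold lower (background 0.575%). These 8 genes stand for 3 distinct sequences, and without centring 1 of them, RNVU1-7, was at least 2-fold higher. RNVU1-7 differs from the RNU1 genes only by T150C, so its call is uncertain. In the PRMT4 inhibitor footprints 2 members were at least 2-fold higher (RNVU1-15 and RNVU1-22; background 0.642%) and 0 lower (background 0.254%). RNU6-8, at 0 in both libraries, left 27 members to compare, of which 17 and 19 were above the median gene.

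**Figure D4:**
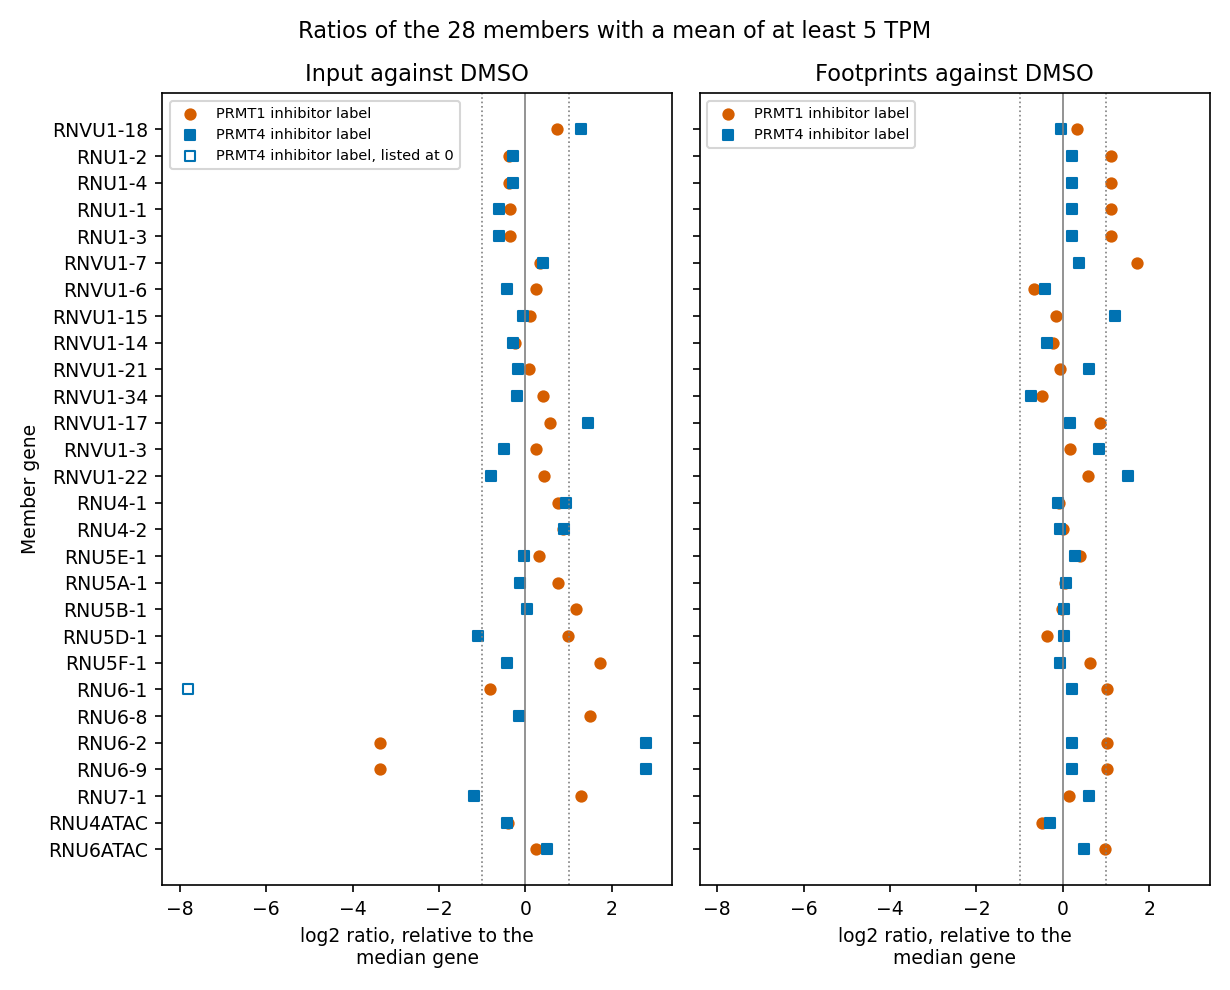
log2 ratio of each of the 28 members against DMSO, relative to the median gene, in input (left) and footprints (right), with circles for the PRMT1 and squares for the PRMT4 inhibitor label; dotted lines mark 2-fold and the open square a gene listed at 0 in 1 of the libraries. Footprint ratios stay between -0.74 and 1.71, while in input the U6 copies spread furthest and RNU7-1 lies at 1.28 and -1.19.

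The inhibitor libraries were also compared with each other. In input, 7 members were at least 2-fold lower under the PRMT4 than under the PRMT1 inhibitor label (RNVU1-22, RNU5B-1, RNU5D-1, RNU5F-1, RNU6-1, RNU6-8 and RNU7-1; background 0.664%), and RNU6-2 and RNU6-9 were at least 2-fold higher (background 1.03%). The calls on RNU6-1, RNU6-2 and RNU6-9 go opposite ways although these genes have the same sequence. Over all 7 genes of that sequence the ratio was 0.02, so these calls cannot be assigned to single genes. The call on RNU6-8 is uncertain too, since it differs from that sequence only at its last base. In footprints RNVU1-15 was at least 2-fold higher (background 0.442%). RNVU1-7, which differs from the identical U1 genes only by T150C, was at least 2-fold lower (background 3.12%). For that reason its call is uncertain too.

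Footprint-to-input ratios separated the classes more widely than the labels did. Each inhibitor ratio pairs input and footprints by label, and so rests on the labels that need the caution given above. U6atac lay at -4.53 in DMSO, -3.81 in the PRMT1 inhibitor label and -4.57 in the PRMT4 inhibitor label, and U6 at -2.47, -1.37 and -2.17. U7 lay at 1.19, 0.03 and 2.96, and U5 at 0.75, 0.15 and 0.97. The U7 inputs were 145.95 and 22.02 TPM under the PRMT1 and PRMT4 inhibitor labels, so 0.03 and 2.96 hold for this pairing only. U1 lay at -0.58, 0.07 and -1.07, U4 at -0.33, -1.19 and -1.37, and U4atac at -0.51, -0.60 and -0.38. The RNAs that bind LSm proteins, U6 and U6atac, were thus the lowest classes under each label, and U7 and U5 were above the median gene under each. With levels rescaled to protein-coding TPM and no centring, however, the PRMT1 inhibitor label's ratios were -0.54 for U7 and -0.43 for U5. Over all 7 genes of the RNU6-1 sequence the ratios were -3.72, -2.36 and -3.24.

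By gene, 5 members in DMSO had a footprint value at least 2-fold above input (RNVU1-6, RNU5E-1, RNU5D-1, RNU5F-1 and RNU7-1; background 16.4%) and 5 at least 2-fold below (background 19.0%). Under the PRMT1 inhibitor label 8 were above (background 16.6%) and 7 below (background 16.9%). Those above included RNU1-1 to RNU1-4, RNU6-2 and RNU6-9, and those below included RNVU1-18 and RNU6-1, which have the same sequences. Over all 7 genes of each sequence the ratios were 0.17 for U1 and -2.36 for U6, so these calls cannot be assigned to single genes. Under the PRMT4 inhibitor label 7 were above (background 17.7%), among them RNU6-1, whose input was listed at 0. A further 8 were below (background 20.8%), among them RNU6-2 and RNU6-9, which are identical to RNU6-1. RNVU1-6 and RNU5E-1 were above in all 3 labels, and RNU6ATAC below in all 3. RNU6-8 was also below in all 3, but it differs from RNU6-1 only at its last base. Its calls are therefore as uncertain as those of the identical copies. In DMSO these shares, 17.9% each way, were near the background.

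**Figure D5:**
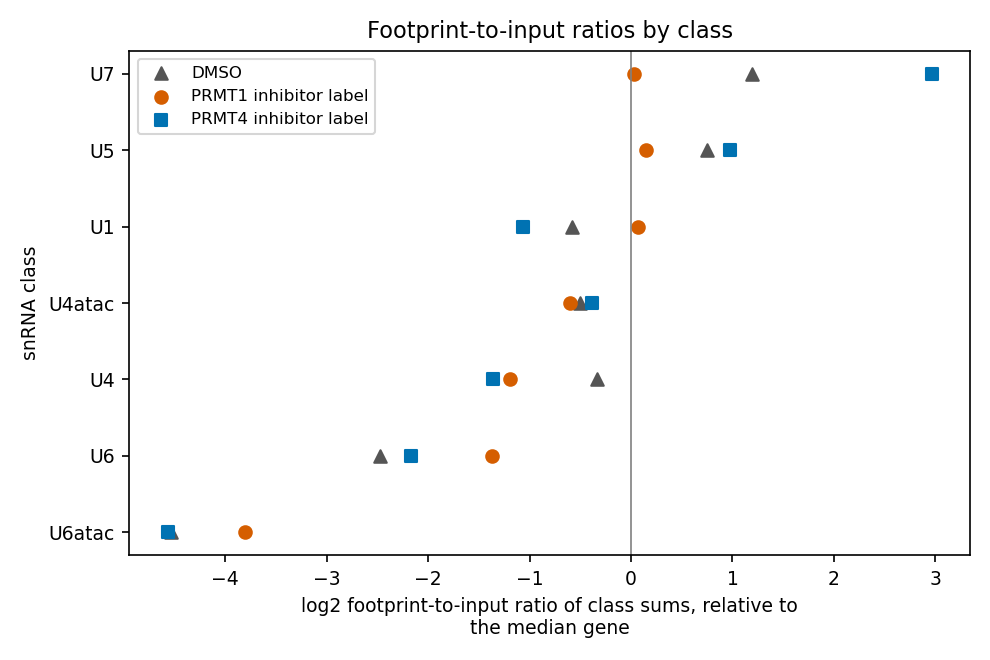
log2 ratio of footprint TPM to input TPM of each class sum, relative to the median gene, for the DMSO (triangles), PRMT1 inhibitor (circles) and PRMT4 inhibitor (squares) labels. U6atac lies between -4.57 and -3.81 and U6 between -2.47 and -1.37, whereas U7 spreads from 0.03 to 2.96. Inputs and footprints are paired by label.

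Messages of proteins that build or use these RNAs were taken as fixed lists of 121 genes, of which 113 had a mean of at least 5 TPM. None was at least 2-fold from the median gene in either inhibitor input or in the PRMT1 inhibitor footprints. Among all 9040 genes, 0.619% were higher and 0.199% lower in the PRMT1 inhibitor input, and 1.98% and 0.465% in the PRMT4 inhibitor input. In footprints the shares were 3.25% and 0.575% for the PRMT1 and 0.642% and 0.254% for the PRMT4 inhibitor label. For 113 genes such shares stand for only a few genes, the most in the PRMT1 inhibitor footprints. Whether a list with none differs from that was not tested. In the PRMT4 inhibitor footprints SMN1 alone was at least 2-fold lower, at -1.27. Its reads cannot be cleanly separated from those of SMN2, a near-identical gene. By direction, 51 of 113 were above the median gene in the PRMT1 inhibitor input and 32 in the PRMT4 inhibitor input, and 34 and 56 in the footprints. The medians were -0.02, -0.15, -0.12 and 0.00.

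Of the 7 Sm protein messages measured, 6 were below the median gene in the PRMT4 inhibitor input, with a median of -0.39 and SNRPG lowest at -0.74. All 7 LSm messages were below it there, with a median of -0.26. In the PRMT1 inhibitor footprints 7 of 7 Sm messages (median -0.28) and 7 of 7 LSm messages (median -0.11) were below it. The U1 proteins SNRNP70, SNRPA and SNRPC had medians of -0.05 and -0.26 in input and -0.36 and 0.01 in footprints.

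Among U2 proteins, 10 of 12 were below the median gene in the PRMT1 inhibitor footprints, with a median of -0.33 and SF3B5 lowest at -0.71. The PRMT1 and PRMT4 inhibitor inputs had 10 and 9 of them below it, and the PRMT4 inhibitor footprints 7. Of the 17 tri-snRNP proteins 15 were below it in the PRMT1 inhibitor footprints, with EFTUD2, the GTPase of the U5 snRNP, lowest at -0.75. For these the inputs had 14 and 13 below it, and the PRMT4 inhibitor footprints 10. The minor spliceosome list had medians between -0.01 and 0.05 in the 4 comparisons with DMSO. U7 proteins had 3 measured members, with SLBP, the histone message binding protein, at -0.58 in the PRMT4 inhibitor input.

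The transcription list, which holds the SNAPc subunits that drive snRNA promoters, had 11 of 14 members above the median gene in the PRMT1 inhibitor input, with medians of 0.07, -0.01, 0.07 and 0.13 over the 4 comparisons. Integrator, which cleaves snRNA 3′ ends, had 13 measured subunits and medians of -0.04, -0.02, -0.06 and -0.15. The maturation list, which covers export, capping, Sm ring assembly and end trimming, had 22 of 27 members below the median gene in the PRMT4 inhibitor input, with a median of -0.27. In the PRMT1 inhibitor footprints its lowest member was WDR77, the partner of the methyltransferase PRMT5, at -0.90.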

How the data were processed

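The authors deposited 1 table of TPM, 1 column per library, printed to 2 decimals. Per the submitters' processing notes the tools were RSEM 1.2.22, STAR 2.4.2a, Bowtie 1.1.2 and cutadapt 1.18, on build GRCh37.p13, with no step given for each. TPM does not hold sequencing depth, which is therefore unknown, so no interval or count test was made. Of 60461 identifiers, 41 pseudoautosomal Y copies were dropped. Symbols were found for 55725 identifiers and types, from GENCODE release 29, for 56157. That release uses a later genome build, so no coordinates are given. Its transcripts supplied the sequences of 37 of 37 members. Some of these sequences are not reported here.

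Log2 ratios used a pseudocount of 1 TPM, understate changes of low genes, and were centred on genes with a mean of at least 5 TPM. Python 3.11.15, numpy 2.4.6, pandas 2.3.3, Biopython 1.88 and matplotlib 3.10.9 were used, and the ratio code was tested on simulated data. Members and gene lists were chosen with earlier results of these data known. Every member with a mean of at least 5 TPM is named, and of each list the counts, the median and extreme members by value; the cell line markers were chosen after the values were seen. Alternatives covered centring, rescaling to protein-coding TPM, pseudocounts of 0.1 and 5, the filter, the member rule and the other inhibitor's input. With 1 library per group no p-value was computed.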

Additional observations from a re-analysis of the deposited data

How the results depend on the processing

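Values are log2 ratios or counts of genes at least 2-fold different, and a change was called a move past 1.5-fold. The summed level in the PRMT4 inhibitor input, 0.50, became -0.14 without RNVU symbols and -0.10 without RNVU1-18, the most abundant member. Footprint-to-input ratios of the sum became -0.97 in DMSO and -1.38 in the PRMT4 inhibitor label after rescaling to protein-coding TPM (from -0.36 and -0.77), and -0.70 in the PRMT1 inhibitor label with symbols ending in P (from -0.04). In the PRMT4 inhibitor label that ratio was 0.076 without RNVU symbols and 0.042 without RNVU1-18, and for U1 alone it reversed from -1.07 to 0.18 without RNVU symbols. Both omissions drop RNVU1-18 but keep RNU1-1 to RNU1-4, whose identical reads cannot be separated from it. Over all 7 genes of that sequence, the PRMT4 inhibitor label had 0.53 in input and -1.05 for footprints to input.

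Including symbols ending in P raised the genes with a mean of at least 5 TPM from 28 to 61, so counts rise partly with the set. Counts higher and lower were then 15 and 5 (PRMT1 inhibitor input) and 13 and 9 (PRMT4 inhibitor input). In footprints they were 17 and 3 for the PRMT1 inhibitor label, with 2 lower for the PRMT4 inhibitor label. PRMT4 against PRMT1 inhibitor gave 4 and 17 in input and 5 and 3 in footprints. The backgrounds are those given above. Calls on identical copies are among these counts: RNU6-3P and RNU6-5P, of the RNU6-1 sequence, were both at -7.04 in the PRMT1 inhibitor input. Without RNVU symbols the PRMT4 inhibitor input had 2 higher, its footprints 0, and the inhibitor footprints against each other 0 and 0. The 8 members higher in the PRMT1 inhibitor footprints became 1 with no centring, 5 with a pseudocount of 5, 5 with a filter of 1 TPM and 2 with no filter. The 2 higher in the PRMT4 inhibitor footprints became 1 with a pseudocount of 5 and 1 with GENCODE 29 names, an alternative chosen after seeing the data. Between the inhibitor footprints, higher counts were 2 with no centring, a pseudocount of 0.1 or no filter, and lower counts 2 with no filter. Apart from the U1 reversal these are 32 changes in the total sum and the counts, where 168 other values stayed within 1.5-fold. Among single class sums 20 more moved and 546 did not. Most of the 20 were footprint-to-input ratios after rescaling to protein-coding TPM, such as U1 in DMSO at -1.20. Other causes of the changes were not tested. No paired analysis was possible because each group has 1 library.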

Other observations

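RNU2-1 was not listed under its own identifier, and the other U2 genes stayed outside the member rule because their symbols end in P. RNU2-2P, a U2 locus of this kind, had 21524 TPM in DMSO input, 41922 TPM in the PRMT1 inhibitor input and 30587 TPM in the PRMT4 inhibitor input, and at 11727, 10906 and 11116 TPM in footprints. It was at least as abundant as RNVU1-18 in every library, and its 3 footprint values were close together. Whether reads of RNU2-1 were counted under RNU2-2P or the other U2 copies was not tested. Of 69 U2 symbols ending in P, 13 had a mean of at least 5 TPM. Among inputs, 6 of these 13 were highest in the PRMT1 inhibitor label and lowest in the PRMT4 inhibitor label, 4 were highest in the PRMT4 inhibitor label, and 3 were highest in the PRMT1 inhibitor label and lowest in DMSO. RNU2-59P, next in abundance, had 8847, 12441 and 15757 TPM and was highest in the PRMT4 inhibitor input. RNU2-6P, at 2525, 6081 and 1316 TPM, was lowest there. RNU2-61P was at 1680, 3238 and 1251 TPM in input and 5548, 7140 and 9090 TPM in footprints.

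RNU11 and RNU12, of the minor spliceosome, were not listed under their own identifiers. AL360012.1, a gene whose span overlaps 131 of the 134 bases of RNU11, had input values of 534.4, 705.7 and 601.02 TPM and footprint values of 13368, 31781 and 15543 TPM. Z93241.1, which covers all 150 bases of RNU12 within a span of 664 bases, had input values of 120.2, 156.98 and 141.3 TPM and footprint values of 3697, 3930 and 4448 TPM. Both were higher in footprints than in input under every label, and whether their reads come from RNU11 and RNU12 was not tested.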
